A study of Homo sapiens with 8 samples.

Results

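The genes described here are repressors of the circadian clock, the DEC transcription factors that meet them, and the clock output factor DBP. They were chosen by symbol from the count table: the DEC factors BHLHE40 (DEC1) and BHLHE41 (DEC2), the period genes PER1, PER2 and PER3, the cryptochromes CRY1 and CRY2, the REV-ERB receptor genes NR1D1 and NR1D2, and the output factor DBP. All 10 symbols were found among the 54261 genes of the table, and all 10 passed the filter on low counts. Their values were read in 8 libraries, and the questions were whether their RNA changed when colorectal cancer (CRC) cells were kept in hypoxia and how it differed between cell lines.

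The 8 libraries were total RNA with the ribosomal RNA removed, 1 library for each cell line and condition, all from cells at passage 5 in DMEM with serum. The 2 normal lines were NCM460, described as normal colon epithelium, and HIEC6, described as normal intestinal epithelium. The 3 CRC lines were DLD1, HCT116 and HCT8, each with an untreated and a hypoxia library. The study's methods give HCT8 as p53-wt and APC-mut and DLD1 as p53-mut and APC-mut, and give no genotype for HCT116. Neither the oxygen level, the length of hypoxia nor the hour of harvest was given in the sources used here. A replicate of a group was therefore another cell line, and no line was repeated within a condition. In bulk RNA, fewer cells that carry a transcript and less of it per cell cannot be told apart.

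In the core clock, the activators CLOCK and ARNTL (BMAL1) bind E-box sequences and switch on the period, cryptochrome and REV-ERB genes, whose proteins in turn repress the activators or their gene. The D-box binding factor DBP is a direct clock output, and the DEC proteins are repressors that bind E-boxes themselves. Both DEC genes are textbook targets of the hypoxia-inducible factors (HIF), which bind a short core inside the hypoxia response element. In a culture that has not been synchronised the cells run out of phase, and a harvest at a single time gives a level of these RNAs and not their rhythm.

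The start regions of these genes were searched for the letters that both systems read, and 5 of them are shown because these genes gave the highest changes under hypoxia. Capitals mark the E-box CACGTG or the HIF core in the form ACGTG, read on either strand, so that a HIF core inside an E-box is marked with it. The form GCGTG was not searched and is neither marked nor counted. Each window runs from 250 bases before the RefSeq start to 50 bases after it, on the gene's strand, 5′ to 3′. Each was found once in GRCh37, for BHLHE40 at chr3:5020872-5021171 (plus strand), for BHLHE41 at chr12:26277921-26278220 (minus), for PER1 at chr17:8055673-8055972 (minus), for NR1D1 at chr17:38256793-38257092 (minus) and for DBP at chr19:49140587-49140886 (minus).
BHLHE40: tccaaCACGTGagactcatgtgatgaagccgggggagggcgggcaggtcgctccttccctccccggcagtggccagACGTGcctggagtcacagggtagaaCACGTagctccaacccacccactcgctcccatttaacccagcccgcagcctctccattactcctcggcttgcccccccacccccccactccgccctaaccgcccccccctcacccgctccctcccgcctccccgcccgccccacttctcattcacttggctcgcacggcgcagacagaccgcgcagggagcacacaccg
BHLHE41: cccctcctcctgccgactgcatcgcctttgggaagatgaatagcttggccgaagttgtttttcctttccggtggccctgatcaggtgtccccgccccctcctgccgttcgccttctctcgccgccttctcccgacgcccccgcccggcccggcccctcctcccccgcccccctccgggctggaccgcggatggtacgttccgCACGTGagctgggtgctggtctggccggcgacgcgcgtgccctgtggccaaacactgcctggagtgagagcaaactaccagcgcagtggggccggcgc
PER1: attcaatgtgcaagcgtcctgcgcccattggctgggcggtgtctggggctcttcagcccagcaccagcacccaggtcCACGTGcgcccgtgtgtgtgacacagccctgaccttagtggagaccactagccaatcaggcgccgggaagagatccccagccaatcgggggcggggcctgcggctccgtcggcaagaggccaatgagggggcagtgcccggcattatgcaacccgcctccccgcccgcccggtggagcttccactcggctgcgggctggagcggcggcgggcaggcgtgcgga
NR1D1: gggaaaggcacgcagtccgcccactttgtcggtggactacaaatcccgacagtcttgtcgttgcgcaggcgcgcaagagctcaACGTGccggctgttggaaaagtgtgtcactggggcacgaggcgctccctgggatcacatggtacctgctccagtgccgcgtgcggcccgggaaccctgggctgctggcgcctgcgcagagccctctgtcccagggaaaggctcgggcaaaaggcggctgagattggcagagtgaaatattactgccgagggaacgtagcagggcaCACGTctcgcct
DBP: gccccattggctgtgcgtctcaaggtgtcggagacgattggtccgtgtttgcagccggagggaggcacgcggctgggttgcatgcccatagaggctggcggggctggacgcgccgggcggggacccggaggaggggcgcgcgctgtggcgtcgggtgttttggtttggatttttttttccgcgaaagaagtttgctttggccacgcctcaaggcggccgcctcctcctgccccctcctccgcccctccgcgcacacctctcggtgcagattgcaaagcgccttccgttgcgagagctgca

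BHLHE40 held 1 E-box, beginning 245 bases before the start, and 2 HIF cores outside it, beginning 174 and 149 bases before the start. BHLHE41 held 1 E-box 48 bases before the start, and PER1 held 1 E-box 173 bases before it. NR1D1 held no E-box in this window and 2 HIF cores of the form ACGTG, and DBP held neither the E-box nor this form here. Over the 13 RefSeq windows of the 10 genes, the E-box stood in 4 windows, of 4 genes (BHLHE40, BHLHE41, PER1 and NR1D2), beside 7.26% of all 35116 promoter windows of the same length. HIF cores of the form ACGTG outside an E-box stood in 6 windows, of 5 genes, beside 15.5% of all windows. The nuclear receptor site AGGTCA, on either strand, was found in PER1 and CRY2 (13.8% of all windows), and the D-box in the forms TTACGTAA or TTATGTAA, on either strand, in PER2, PER3 and NR1D2 (1.01% of all windows). These are matches of letters in a short window and not measured binding. The PER1 window lies at an internal start of the gene's GENCODE span.

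The libraries held 45519306 to 57374239 counts, so that 3 counts, taken as the floor, stood for 0.0523 to 0.0659 counts per 1000000 (CPM). The untreated and the hypoxia libraries of the CRC lines carried different sequencing run labels, so run and treatment cannot be told apart. The HCT116 hypoxia library took the lowest scaling factor in edgeR (0.79), and the median gene of that pair lay at a log2 ratio of -0.35 when CPM were taken over the column total and at 0.01 after TMM scaling. The NCM460 library correlated with HCT116 at r = 0.989 over 21647 genes of log2(CPM + 1), against 0.876 with HIEC6, the other normal line. Genes are not independent replicates, and the comparisons that use NCM460 are given with and without it.

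**Figure D1:**
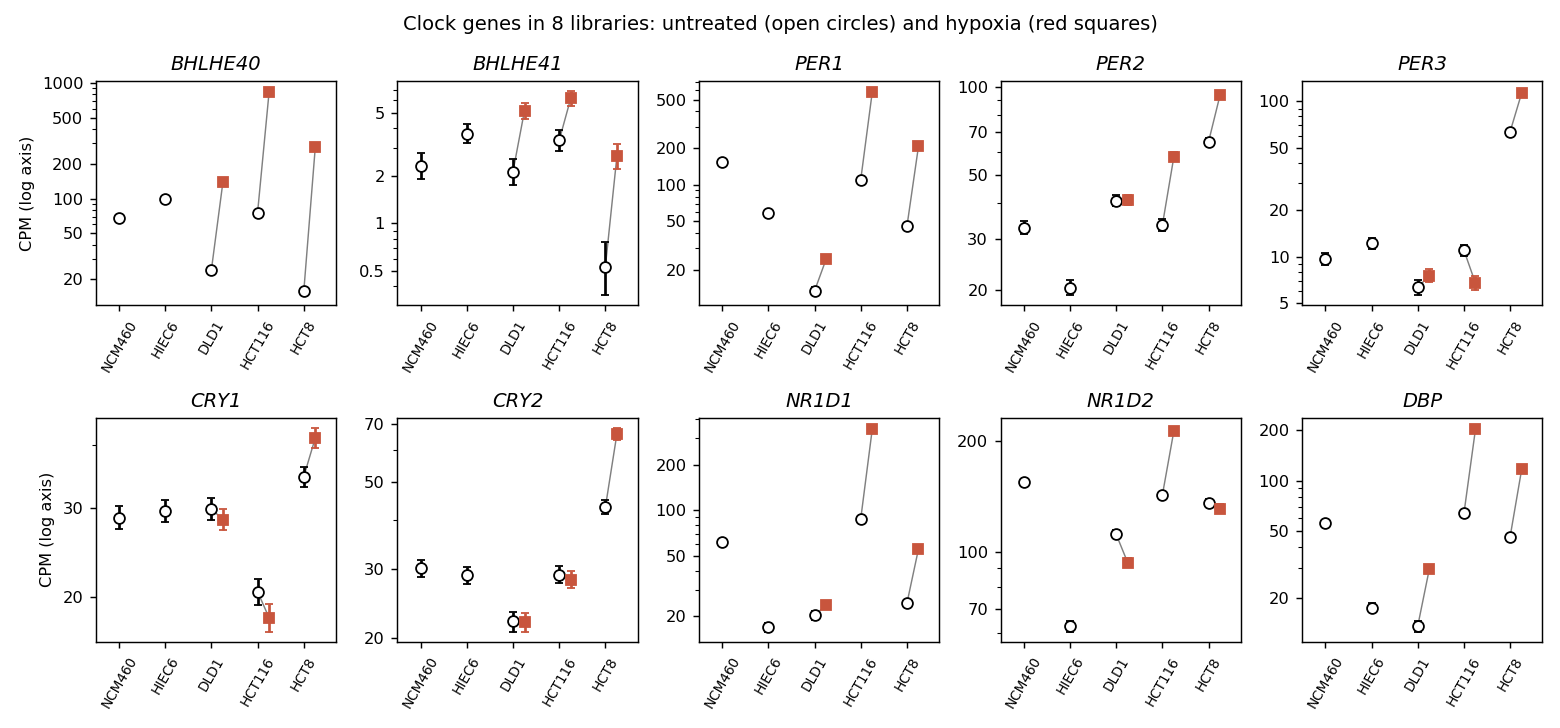
CPM over the column total, on log axes whose range differs between panels, of the 10 genes in the 8 libraries. Open circles are untreated and red squares hypoxia libraries, lines join the same cell line, and bars are 95% Poisson intervals of the count, often smaller than the point. BHLHE40 stands higher in hypoxia in all 3 CRC lines, above every untreated library.

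BHLHE40 had the highest fold changes of the 10 genes under hypoxia, and it did so in each CRC line. It codes for DEC1, a basic helix-loop-helix repressor, and lies at chr3:5021122-5027008 (plus strand, GRCh37). It stood at 24.2 CPM in untreated DLD1, 75.9 in HCT116 and 15.7 in HCT8, and at 139.6, 842 and 281 CPM in the hypoxia libraries of the same lines. The lowest hypoxia library was above the highest untreated library, HIEC6 at 98.7 CPM included. The ratio was 5.77-fold in DLD1, 11.1-fold in HCT116 and 17.8-fold in HCT8. Counting intervals on the log2 scale ran from 2.44 to 2.62, 3.43 to 3.52 and 4.06 to 4.26, so the 3 lines differed by more than counting error, which is the only error that a single library allows. The ratio was highest in HCT8, the line with the lowest untreated level.

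BHLHE41, the gene of DEC2 on the minus strand of chr12:26272963-26277970, was far lower. Its counts went from 109 to 297 in DLD1, from 175 to 342 in HCT116 and from 28 to 121 in HCT8. In CPM it went from 2.13 to 5.18 in DLD1, from 3.35 to 6.17 in HCT116 and from 0.53 to 2.66 in HCT8. Each line was higher in hypoxia, but the groups overlapped, since hypoxic HCT8 remained below untreated HCT116. The log2 ratio was 1.28 (95% counting interval 0.96 to 1.61) in DLD1, 0.88 (0.62 to 1.15) in HCT116 and 2.32 (1.72 to 2.97) in HCT8. Per kilobase of exon, which allows the DEC genes to be compared, BHLHE40 stood at 239.6 CPM per kb and BHLHE41 at 1.60 in hypoxic HCT116. In every untreated library BHLHE41 was the lowest of the 10 genes on this scale, and BHLHE40 was the highest in all 3 hypoxia libraries. The highest was NR1D2 in untreated NCM460, DLD1 and HCT8, NR1D1 in HCT116 and BHLHE40 in HIEC6.

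The period genes differed in their ratios. Their proteins form the repressive complex of the clock with the cryptochromes. PER1 (chr17:8043790-8059824, minus strand) stood at 13.4 CPM in untreated DLD1, 110.3 in HCT116 and 45.6 in HCT8, and at 24.5, 581 and 207 CPM in hypoxia. This was 1.82-fold in DLD1, 5.26-fold in HCT116 and 4.54-fold in HCT8. All 3 lines were higher, with the groups overlapping because hypoxic DLD1 lay below untreated HCT8.

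PER2 (chr2:239152685-239198743, minus strand) moved less. It went from 40.6 to 41.0 CPM in DLD1, from 33.4 to 57.6 in HCT116 and from 64.8 to 94.0 in HCT8. The log2 ratios were 0.01 (95% counting interval -0.07 to 0.10), 0.79 and 0.54, so that in DLD1 no difference was detectable beyond counting error. PER3 (chr1:7844351-7905237, plus strand) split the lines: 6.33 to 7.51 CPM in DLD1, 10.97 to 6.73 in HCT116 and 63.8 to 113 in HCT8. Its log2 ratios were 0.25, -0.70 and 0.83, and -0.35 in HCT116 after TMM scaling. HCT8 held more PER3 than any other line in both conditions.

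The cryptochrome genes, which code for the stronger repressors of the complex, stayed close to their untreated levels in DLD1 and HCT116. CRY1 (chr12:107385142-107487327, minus strand) read 29.9 and 28.5 CPM in untreated and hypoxic DLD1, 20.5 and 18.2 in HCT116 and 34.7 and 41.4 in HCT8. The counting interval of its log2 ratio included 0 in DLD1 (-0.17 to 0.03) and not in HCT116 (-0.30 to -0.05) or HCT8 (0.16 to 0.35). After TMM scaling the HCT116 value turned to 0.18. CRY2 (chr11:45868669-45904799, plus strand) read 22.1 and 22.0 CPM in DLD1, 29.0 and 28.2 in HCT116 and 43.0 and 66.1 in HCT8. Its log2 ratio was 0.62 in HCT8 alone, where the counting interval ran from 0.54 to 0.70, and -0.00 and -0.04 in DLD1 and HCT116, the latter 0.32 after TMM scaling. No CRY gene passed 2-fold in any line.

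The REV-ERB genes code for haem-binding nuclear receptors that repress ARNTL. NR1D1 (chr17:38249046-38256842, minus strand) went from 20.3 to 23.7 CPM in DLD1, from 88.1 to 345 in HCT116 and from 24.4 to 55.6 in HCT8. All 3 ratios were above 1, at 1.17-fold in DLD1, 3.91-fold in HCT116 and 2.28-fold in HCT8, and the counting intervals of the 3 lines did not overlap. NR1D2 (chr3:23986777-24022108, plus strand) was the more even paralogue. It went from 111.5 to 93.4 CPM in DLD1, from 142 to 213 in HCT116 and from 136.0 to 131 in HCT8, which are log2 ratios of -0.26, 0.58 and -0.05. Its levels were higher in hypoxia in HCT116 only.

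DBP, a PAR bZIP activator at D-boxes on chr19:49133287-49140636 (minus strand), was higher in hypoxia in all 3 lines. It went from 13.6 to 29.7 CPM in DLD1, from 63.8 to 202 in HCT116 and from 46.3 to 116.7 in HCT8. The log2 ratios were 1.12 (95% counting interval 0.996 to 1.25), 1.67 (1.61 to 1.72) and 1.33 (1.26 to 1.40). Its ratios lay closer together across lines than those of the DEC genes, PER1 or NR1D1, although its groups overlapped in CPM.

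**Figure D2:**
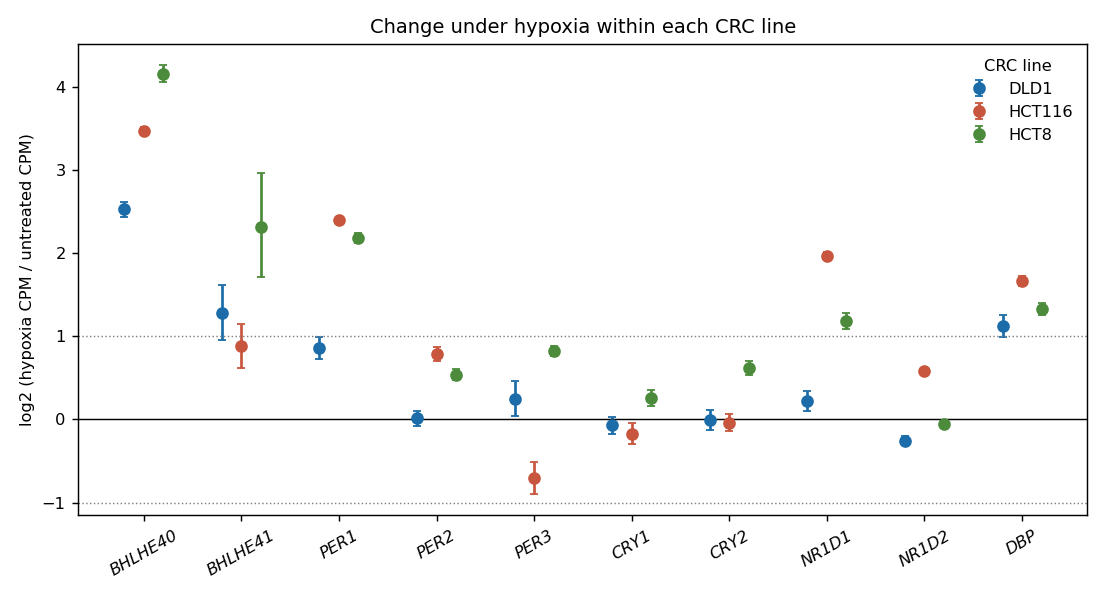
Log2 ratio of hypoxia over untreated CPM within each CRC line, 1 library per line and condition, with 95% counting intervals; dotted lines mark 2-fold. BHLHE40 lies above 2-fold in all 3 lines, and PER3 and NR1D2 lie on opposite sides of 0 in different lines.

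Counted by line, 3 of the 10 genes were past 2-fold higher in DLD1 (BHLHE40, BHLHE41 and DBP), where 11.2% of the 19642 genes with at least 10 counts in either library were. In HCT116 there were 4 (BHLHE40, PER1, NR1D1 and DBP), beside 12.4% of 19846 genes. After TMM scaling there were 6, with BHLHE41 and PER2 added, and the share of all genes was not taken on that scale. In HCT8 there were 5 (BHLHE40, BHLHE41, PER1, NR1D1 and DBP), beside 14.4% of 20091 genes. BHLHE40 and DBP passed in all 3 lines, and the share of all genes that did so was not taken. None of the 10 was past 2-fold lower in any line, where 5.9%, 25.7% and 9.81% of all genes were in DLD1, HCT116 and HCT8. All these shares are over column totals, where the median gene of the HCT116 pair lay at a log2 ratio of -0.35. A pair of single libraries gives no replicate error, and these counts carry no test.

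Across the lines, edgeR's quasi-likelihood test of the 3 hypoxia against the 3 untreated CRC libraries called 0 of the 10 genes at a Benjamini-Hochberg adjusted p under 0.05, as it called 0 of all 21045 genes tested (0%). At an unadjusted p under 0.05 it held 1 of the 10, BHLHE40, and 607 of all genes. DESeq2 without the cell line called BHLHE40 alone of the 10, and limma-trend called none. BHLHE40 had a log2 fold change of 3.70 (SE 1.05, n = 3 against 3, adjusted p = 0.9999 by edgeR's quasi-likelihood test). Without the hypoxic HCT116 library this was 2.33, and without untreated HCT116 it was 4.74. In that fit the lines' own differences are part of the error. The untreated and hypoxia libraries of each line came from the same line, so the line was also entered as a block.

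With the cell line as a block, edgeR called 3 of the 10 genes, all higher in hypoxia: BHLHE40, PER1 and DBP. Of all genes 0.741% were called higher and 0.209% lower. The log2 fold change was 3.53 for BHLHE40 (SE 0.33, adjusted p = 0.00564), 1.96 for PER1 (SE 0.34, adjusted p = 0.0443) and 1.51 for DBP (SE 0.22, adjusted p = 0.0253). BHLHE41 stood at 1.60 (SE 0.38, adjusted p = 0.0950) and NR1D1 at 1.26 (SE 0.35, adjusted p = 0.127). DESeq2 with the same block also called these, 5 of the 10 in all, with 4.54% of all genes called higher and 3.38% lower.

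The other 5 genes did not pass in either tool. PER2 stood at 0.58 (SE 0.23, adjusted p = 0.237), CRY2 at 0.33 (SE 0.20), PER3 at 0.27 (SE 0.25), NR1D2 at 0.22 (SE 0.25) and CRY1 at 0.14 (SE 0.19) in edgeR with the block. A missed threshold does not show that their levels were equal. The median of the 10 log2 fold changes was 0.92 with the block, where the median of all genes tested was 0.03. None of the edgeR calls among the 10 held without the HCT8 pair, where 6 genes were called in all. At an unadjusted p under 0.05 that fit held 5 of the 10 and 1760 of all genes. BHLHE40 then stood at 3.20 (adjusted p = 0.0831), DBP at 1.60 (adjusted p = 0.252) and PER1 at 1.84 (adjusted p = 0.387). edgeR with the block called 4 of the 10 without DLD1 (NR1D1 added), where 292 genes were called in all. Without HCT116 it called 4 (BHLHE41 added), where 738 were, against 200 with all 3 lines.

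**Figure D3:**
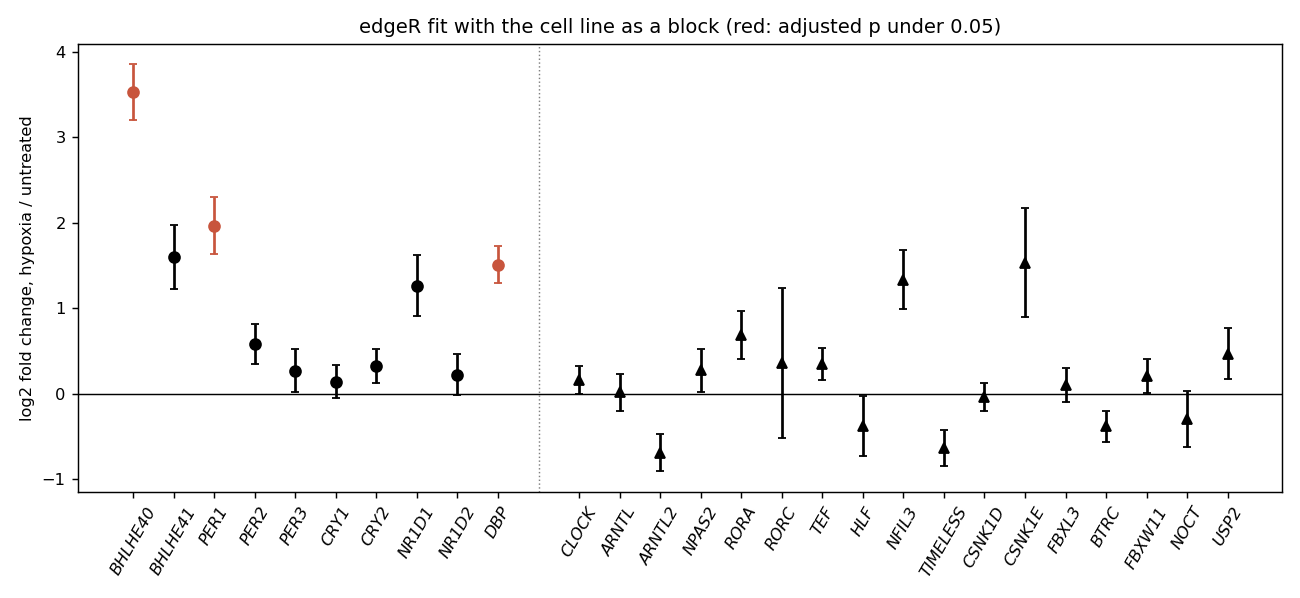
Log2 fold change, hypoxia over untreated, from edgeR with the cell line as a block (points, with SE bars) for the 10 genes (circles, left of the dotted line) and 17 other clock genes (triangles, right). BHLHE40, PER1 and DBP are past an adjusted p of 0.05 (red), and none of the 17 is.

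Of 20 further clock genes, 17 were tested, and edgeR called 0 of them with or without the block. At an unadjusted p under 0.05 it held 5 of them with the block and 1 without it, beside 3884 and 607 of all 21045 genes. DESeq2 called 1, NFIL3, with the block and none without it. RORB, CIART and FBXL21 were below the filter. NFIL3, the repressor that competes with DBP at D-boxes, had a log2 fold change of 1.33 with the block (SE 0.35, adjusted p = 0.111). Its counts went from 789 to 1395 in DLD1, from 1606 to 7371 in HCT116 and from 608 to 938 in HCT8, with the highest ratio in HCT116. The activators lay near 0 with the block: ARNTL at 0.01, CLOCK at 0.15 and NPAS2 at 0.27. ARNTL2, a paralogue of ARNTL, was at -0.69 (SE 0.22, adjusted p = 0.156) and TIMELESS at -0.63 (SE 0.21, adjusted p = 0.171), and neither passed. USP2, a ubiquitin protease, was at 0.47 and RORA, the activator that opposes the REV-ERBs, at 0.68 (adjusted p = 0.244). RORA had only 5 and 3 counts in untreated and hypoxic HCT116, and its ratio was 1.18-fold in DLD1 and 2.37-fold in HCT8. The median of the 17 was 0.15.

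Canonical HIF targets were read beside the hypoxia labels. Their list was chosen with earlier results of these data known, so it is no independent check of the labels. Of 14 genes of the HIF system, edgeR with the block called 7, all higher, beside 0.741% of all genes called higher. Carbonic anhydrase CA9 had a log2 fold change of 7.0 (SE 0.53, adjusted p = 0.00447), NDRG1 of 4.37 (adjusted p = 0.00462), the HIF prolyl hydroxylase EGLN3 of 3.66 (adjusted p = 0.000809) and the kinase PDK1 of 3.0 (adjusted p = 0.0163). CA9 was near 0 in the untreated lines, with counts going from 1 to 242 in DLD1, from 6 to 1039 in HCT116 and from 4 to 178 in HCT8. BNIP3 was also called (adjusted p = 0.00564), but on HCT116 alone, from 969 to 10624 counts, since it had 0 counts in untreated DLD1 and HCT8 and 5 and 1 in hypoxia. HIF1A itself stood at -0.03 and ARNT at 0.46, and neither passed.

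**Figure D4:**
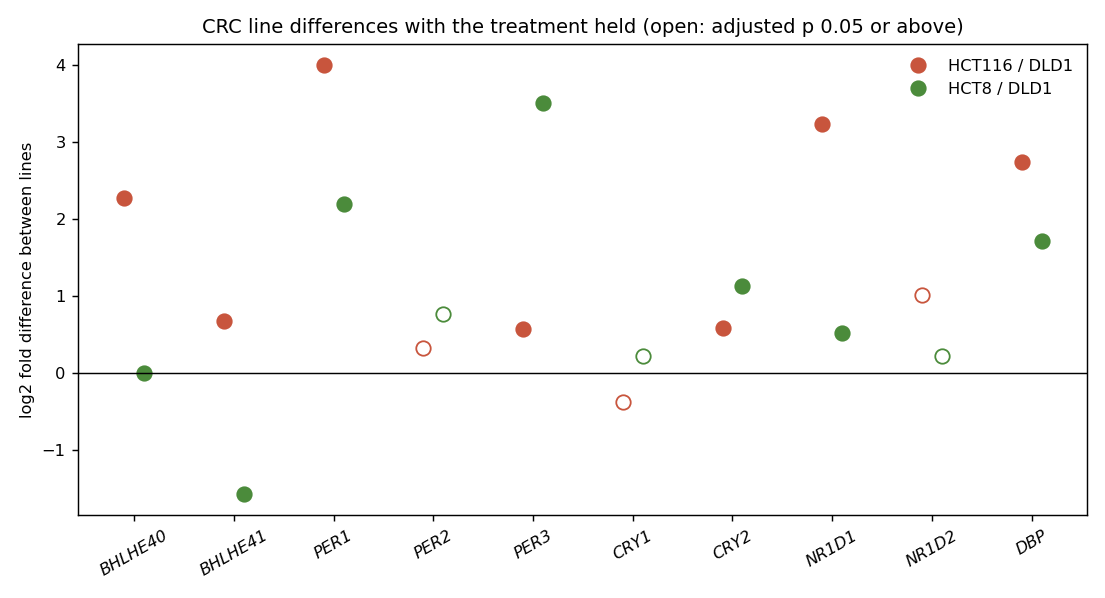
Log2 fold difference of HCT116 and of HCT8 from DLD1 over untreated and hypoxia libraries together, from edgeR with treatment and line as terms. Filled points belong to genes whose F test over both differences had an adjusted p under 0.05, and the F test is 1 per gene. PER1 differs by 3.99 between HCT116 and DLD1 and PER3 by 3.50 between HCT8 and DLD1.

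The CRC lines differed from each other in 7 of the 10 genes when the treatment was held constant (edgeR F test over the line terms, adjusted p under 0.05), beside 39% of all 21045 genes. PER1 was higher than in DLD1 by a log2 difference of 3.99 in HCT116 and 2.19 in HCT8 (adjusted p = 0.000593). DBP had the same order, at 2.73 and 1.71 (adjusted p = 0.000420). HCT116 had the highest level of both.

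NR1D1 was higher in HCT116 by 3.23 and in HCT8 by 0.52 (adjusted p = 0.00109). BHLHE40 was higher in HCT116 by 2.27, with HCT8 at 0.01 (adjusted p = 0.00176). The fit averages over the conditions: HCT8 lay below DLD1 untreated (15.7 against 24.2 CPM) and above it in hypoxia (281 against 139.6). BHLHE41 was at 0.68 in HCT116 and -1.57 in HCT8 (adjusted p = 0.0178). DEC genes were thus highest in HCT116 in this fit, while PER3 was highest in HCT8, by 3.50 over DLD1, with HCT116 at 0.57 (adjusted p = 0.000126).

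CRY2 was called with smaller differences of 0.59 in HCT116 and 1.12 in HCT8 (adjusted p = 0.0207). NR1D2 lay just outside the threshold (1.02 and 0.22, adjusted p = 0.05001), and PER2 and CRY1 were not called (adjusted p = 0.132 and 0.151). Among the other clock genes RORA had 8155 counts in untreated DLD1 and 5621 in HCT8 but 5 in HCT116 and 2 in NCM460, with 10798, 11494 and 3 in hypoxic DLD1, HCT8 and HCT116. The RORA difference of HCT116 from DLD1 was -10.94 (adjusted p = 8.86e-06). USP2 was higher than in DLD1 in both other lines, by 3.24 and 3.22 (adjusted p = 0.000877).

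Over the 5 untreated lines, PER1 spread 11.4-fold from DLD1 to NCM460 at 153 CPM, in the order DLD1, HCT8, HIEC6 (59.0 CPM), HCT116, NCM460, and 8.21-fold without NCM460. PER3 spread 10.1-fold, with HCT8 at the top and DLD1, NCM460 (9.62), HCT116 and HIEC6 (12.1) close together. In PER3, NCM460 and HCT116, and HCT116 and HIEC6, overlapped in their counting intervals over column totals. After TMM scaling PER3 stood at 13.9 CPM in HIEC6 and 10.8 in HCT116.

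BHLHE40 ran from HCT8 through DLD1, NCM460 (68.5) and HCT116 to HIEC6, a range of 6.27-fold in which all neighbours differed beyond counting error. BHLHE41 had the same order over 6.96-fold, with DLD1 and NCM460 (2.32), and HCT116 and HIEC6 (3.70), not separable by counting error. NR1D1 ranged 5.20-fold, from HIEC6 (16.9) to HCT116, and DBP 4.69-fold, from DLD1 to HCT116. DBP stood at 17.5 CPM in HIEC6 and 55.7 in NCM460. The PAR factor and NR1D1 thus each stood lower in HIEC6 than in NCM460.

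PER2 ranged 3.18-fold and ran from HIEC6 (20.4) and NCM460 (32.8) to HCT8, with NCM460 and HCT116 not separable. NR1D2 ranged 2.46-fold from HIEC6 (62.7) to NCM460 (154), and 2.27-fold without NCM460. The cryptochromes spread least, CRY1 1.69-fold from HCT116 to HCT8 and CRY2 1.95-fold from DLD1 to HCT8. Over column totals CRY1 did not differ beyond counting error between NCM460 (28.7), HIEC6 (29.7) and DLD1 in the order of levels. Nor did CRY2 between HIEC6 (28.9), HCT116 and NCM460 (30.1). These intervals were not taken after TMM scaling. On that scale HIEC6 (33.9) stood above HCT8 (29.99), NCM460 (28.7) and DLD1 (28.6) in CRY1. In CRY2 HIEC6 then stood at 33.0, HCT116 at 28.7 and NCM460 at 30.1. The lowest NR1D1 level was then shared by DLD1 and HIEC6 (both 19.3).

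The 3 untreated CRC lines against the 2 normal lines gave no call in edgeR among the 10 genes, nor at an unadjusted p under 0.05, and DESeq2 and limma-trend called none either. Of all 19964 genes edgeR called 0 (0%), with 542 at an unadjusted p under 0.05, and DESeq2 called 131. BHLHE40 had a log2 difference of -1.28 (SE 0.78) and PER1 of -1.04 (SE 0.92), while PER2 stood at 0.61 (SE 0.40) and PER3 at 1.05 (SE 1.06). All had an adjusted p of 0.999. Without HCT116, BHLHE40 stood at -2.30 and PER1 at -2.08. These 2 were among 1471 genes with an unadjusted p under 0.05 in edgeR, and they were not called. PER2 was the only one of the 10 whose CRC lines all lay above both normal lines in CPM. There HCT116 (33.4) and NCM460 (32.8) overlapped in their counting intervals, and the share of all genes separated in this way was not taken.

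Each of the 10 genes lay within 2-fold between NCM460 and HCT116, and 6 of 10 did between NCM460 and HIEC6. The share of all genes within 2-fold was not taken for either pair. Over all genes compared, NCM460 correlated at r = 0.989 with HCT116 and 0.876 with HIEC6. Against HIEC6 alone, without NCM460, the log2 difference of NR1D1 was 1.17, of DBP 0.98 and of NR1D2 0.79, and against NCM460 alone they were -0.56, -0.53 and -0.35. These 3 genes changed direction with the normal line used. BHLHE40 was at -1.57 and -0.89, PER1 at -0.30 and -1.52 and PER2 at 0.90 and 0.37, and none of the 10 was called either way, nor had an unadjusted p under 0.05.

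The genes whose pattern over the 8 libraries was most like that of the DEC genes were named by Pearson's r of log2(CPM + 1) among 11981 genes. For BHLHE40 these were TPD52 (r = 0.961), POLR2H (0.955) and WDR54 (0.951), and for BHLHE41 NREP (0.955), GOLGA4 (0.931) and AK4 (0.924). The libraries share lines and depth scaling, and these values are descriptive. TPD52 ranged only from 109.9 CPM in HCT8 to 211 in hypoxic HCT116, a far smaller range than that of BHLHE40.

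Some of these genes share exon bases with a neighbour on the other strand, and whether the counting used strand was not given in the sources used here. BHLHE40 shared 451 bases with BHLHE40-AS1, which had 5 to 64 counts and also stood higher in hypoxia, from 8 to 17 in DLD1, from 5 to 62 in HCT116 and from 18 to 61 in HCT8. BHLHE41 shared 162 bases with SSPN, which went from 21 to 55, from 4 to 18 and from 4 to 21 counts in the same lines. Both neighbours were thus higher in hypoxia where their DEC gene was, at far lower counts than BHLHE40 and at lower counts than BHLHE41. For BHLHE40-AS1 in DLD1 the counting interval of the log2 ratio included 0 (-0.37 to 2.34). NR1D1 shared 473 bases with THRA, which had 797 to 2608 counts and 1920 and 2055 in untreated and hypoxic HCT116, where NR1D1 had 4602 and 19089. DBP shared 661 bases with SPHK2, which went from 579 to 293 counts in HCT116 while DBP went from 3333 to 11211. PER3 shared 868 bases with UTS2, at 0 to 103 counts. In CPM, THRA stood at 1.01 times and SPHK2 at 0.477 times its untreated level in that line, where NR1D1 and DBP stood at 3.91 and 3.17 times theirs.

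Markers of other cells were checked in the same libraries. The 8 epithelial markers summed to 3880 to 11859 CPM, most of it KRT8 and KRT18. In HIEC6, EPCAM stood at 0.18 CPM, CDH1 at 3.03 and CLDN4 at 1.52, against 275 to 651, 126 to 1071 and 215 to 261 CPM in the untreated CRC lines. The defining epithelial markers other than the keratins KRT8 and KRT18 were thus near 0 or low in this line, which is labelled as normal intestinal epithelium. KRT20, an intestinal keratin, was at or under 3 counts in NCM460, HIEC6, HCT116 and both HCT116 and HCT8 in hypoxia, CDX2, an intestinal transcription factor, in HIEC6, and VIL1 in HCT116. The 6 blood markers summed to at most 21.4 CPM, with CD3E at or under 3 counts in every library. The 8 mesenchymal markers summed to 12.03 CPM in DLD1, 42.5 in HCT116 and 15.6 in HCT8 and to 91.7, 169.6 and 25.04 CPM in hypoxia, to 102.6 in NCM460 and to 1468 in HIEC6. VIM made up 1223 CPM of the HIEC6 sum, and COL1A2 stood at 0.46 CPM there. Of these 8 markers, 7 were tested with the block in edgeR, all with a positive log2 fold change. edgeR called 1, FN1, and DESeq2 with the block called 4, FN1, COL1A1, COL1A2 and PDGFRB. The lines were not alike. In HCT8, VIM went from 1.03 to 0.22 CPM, COL1A2 from 1.25 to 0.46 and ZEB1 from 1.35 to 1.23. FN1, COL1A1 and PDGFRB were higher in hypoxic HCT8, and CDH2 had 0 and 1 counts. FN1 had only 14 and 21 counts there, and in FN1 and ZEB1 the counting intervals of both HCT8 libraries overlapped. The part of these markers in the differences of the clock genes was not tested.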

How the data were processed

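The authors deposited whole-number read counts per gene, 1 column per library. Per the labels' processing notes the reads were aligned with HISAT2 2.0.4 to GRCh38, while the study's methods name GRCh37. The counting tool, annotation and strand setting were not given in the sources used here, and no coordinate of the table was needed. The labels' extraction text names a brain tissue, although the samples are labelled as cell lines. All 8 columns were matched to samples by name and analysed.

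Every gene that reached 10 counts in 2 or more libraries entered the fit with TMM scaling in edgeR 4.0.16 (glmQLFit and glmQLFTest, R 4.3.3), with Benjamini-Hochberg adjustment and calls at an adjusted p under 0.05. Hypoxia was fitted without and with the cell line as a block, the CRC lines by an F test beside the treatment, and the 3 CRC against the 2 normal lines. The standard error was taken from the fold change and the F value. DESeq2 1.42.0, limma 3.58.1 (limma-trend), other scalings, filters and left-out libraries were alternatives. Scripts were tested on simulated data. Deviations from the group means correlated at r = 0.82 to 0.857 between libraries of the same line and at -0.611 to -0.0599 between lines, and the pairing comes from the line named in the labels.

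CPM were taken over the column total. Within a line, where no replicate exists, log2 ratios have 95% Clopper-Pearson intervals of the split of counts, and levels have 95% exact Poisson intervals, both for counting error only. The libraries of a group were separate cell lines, so p-values of fits without the block measure the spread between these lines. With the block, and in the F test of the lines, they measure how unevenly the lines responded to hypoxia. Positions came from GENCODE release 44 on GRCh37, and start regions from RefSeq's promoter table, located in GRCh37 by exact match. Genes outside the 10 were named by rule: from each list at most 5 genes, those called with the block by adjusted p, else those with the highest absolute log2 fold change at a mean log2 CPM above 1; ARNTL, CLOCK, NPAS2, RORA, NFIL3, HIF1A and ARNT; overlapping neighbours; and the 3 most correlated genes per DEC gene. The 10 genes and all lists were chosen with earlier results of these data known. A further item of the lines' genotype and a marker gene are not reported here.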

Additional observations from a re-analysis of the deposited data

Results flagged for a closer look

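For 2 genes, CRC lines went in opposite directions under hypoxia by more than counting error, with column totals and with TMM scaling. The log2 ratio of PER3 was 0.25 in DLD1 and 0.83 in HCT8 but -0.70 in HCT116. The log2 ratio of NR1D2 was 0.58 in HCT116 but -0.26 in DLD1. With 1 library per line and condition, the difference between the lines was not tested.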

How the results depend on the processing

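Of the 10 genes, 0 were called under hypoxia without the block. DESeq2 called 1, the replicate block by cell line 3, that block with DESeq2 5, the block with total-count scaling 3, the block without both DLD1 libraries 4 and the block without both HCT116 libraries 4. DESeq2 with the block called 1 other clock gene. Over all genes DESeq2 called 51 without the block, where edgeR called 0, and 1666 with it, where edgeR called 200. Leaving out both libraries of a line, edgeR with the block called 292 without DLD1, 738 without HCT116 and 6 without HCT8. Between CRC lines 3 of the 10 genes were called without the treatment term, where 24.5% of all genes were, against 7 with it (39%). With 1 library left out 5 to 9 were called, where 22.3% to 50.4% of all genes were. BHLHE40, BHLHE41, PER1, PER2 and DBP kept a positive hypoxia fold change in all 19 alternatives.

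Some log2 fold changes changed sign. Under hypoxia, PER3 was -0.031 with the block without HCT8, NR1D2 was -0.15 and NPAS2 -0.022 with the block without HCT116. ARNTL was -0.12 with total-count scaling, -0.023 with no filter, -0.12 with the block and total-count scaling, and with the block -0.025 without HCT116 and -0.0076 without HCT8. In CRC against normal lines, CRY2 was 0.087 with total-count scaling, and limma-trend gave NR1D1 -0.069 and DBP -0.054. The replicate number as a block, which there ties different cell lines, gave PER3 -0.51 and DBP -0.22.

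Leaving out single libraries under hypoxia gave ranges of 2.33 to 4.74 for BHLHE40, 0.90 to 2.03 for BHLHE41, 0.90 to 3.61 for PER1, 0.41 to 0.86 for PER2, 0.73 to 2.30 for DBP, -1.60 to 2.18 for PER3, -0.047 to 0.26 for CRY1, -0.020 to 0.69 for CRY2, -0.27 to 3.09 for NR1D1, -0.27 to 0.66 for NR1D2, -0.12 to 0.96 for USP2, -0.18 to 0.20 for ARNTL and -0.30 to 0.89 for NPAS2. For CRC against normal lines the ranges were -2.30 to -0.88 for BHLHE40, -2.08 to -0.30 for PER1, -0.47 to 1.51 for PER3, -0.33 to 0.075 for CRY2, -1.02 to 1.17 for NR1D1, -0.35 to 0.79 for NR1D2 and -0.53 to 0.98 for DBP. The hypoxia ranges are from the fit without the block, where a left-out library leaves the other library of its line unpaired. Differences between the lines then enter these fold changes. Within the lines, NR1D1 was 1.17-fold higher in hypoxia in DLD1, 3.91-fold in HCT116 and 2.28-fold in HCT8. Leaving NCM460 out of the range over untreated lines was chosen after seeing the data. It moved PER1 and NR1D2 only. The cause of these changes was not tested.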
